A study of Mus musculus with 12 samples.

Results

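The genes described here make itaconate and nitric oxide and handle arginine in macrophages: Acod1, Nos2, Arg1, Arg2, Ass1, Asl, Gch1 and Slc7a2. Members were taken as the non-control probes whose transcript accession belongs to one of these genes, and all 8 were found, on 10 probes, among the 20887 genes named on the array. RNA was measured on 12 one-colour arrays in bone marrow-derived macrophages, cells grown from mouse marrow for 5 to 7 days in the growth factor M-CSF. The groups, of 3 replicates each, were ERRα-/- cells given LPS, ERRα+/+ cells given LPS, ERRα-/- cells given PBS and ERRα+/+ cells given PBS. LPS, a bacterial outer membrane component that activates macrophages, was used at 100 ng/mL for a time not given in the sources used here, and PBS was its solvent. All mice were labelled male C57BL6, aged 6 to 8 weeks, and ERRα is the nuclear receptor encoded by Esrra. The labels do not say how or in which cells Esrra was deleted, and the source field of replicates 2 and 3 reads cell line although their other fields name primary macrophages. Nothing states that replicates came from separate mice or cultures, so p-values measure the spread between these samples, which may be technical.

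Itaconate is made in mitochondria from cis-aconitate, an intermediate of the tricarboxylic acid cycle, by the enzyme that Acod1 encodes, and activated macrophages use it as an antimicrobial and regulatory metabolite. Nitric oxide is made from arginine by the inducible synthase Nos2, which needs the cofactor tetrahydrobiopterin, whose synthesis starts with Gch1. Arginine enters the cell through cationic amino acid transporters such as that of Slc7a2, can be rebuilt from citrulline by Ass1 and Asl, and is removed by the arginases of Arg1 (cytosolic) and Arg2 (mitochondrial), which split it into ornithine and urea.

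Promoter windows in the RefSeq table of build GRCm38.p6 span 250 bases before to 50 bases after the gene's start. Of the genes that rose with LPS, 3 had a window, and these 3 are shown. They were Acod1 at chr14:103046762-103047061 on the plus strand, Ass1 at chr2:31470020-31470319 on the plus strand and Gch1 at chr14:47189364-47189663 on the minus strand. Each is written 5′ to 3′ along the gene, and capitals mark the letters of any motif that was found.
Acod1: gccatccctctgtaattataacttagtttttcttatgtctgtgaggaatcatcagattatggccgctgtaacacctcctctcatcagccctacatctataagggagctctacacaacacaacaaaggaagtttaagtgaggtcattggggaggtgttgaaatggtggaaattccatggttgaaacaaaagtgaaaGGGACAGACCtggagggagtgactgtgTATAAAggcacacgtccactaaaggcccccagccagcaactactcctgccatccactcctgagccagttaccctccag
Ass1: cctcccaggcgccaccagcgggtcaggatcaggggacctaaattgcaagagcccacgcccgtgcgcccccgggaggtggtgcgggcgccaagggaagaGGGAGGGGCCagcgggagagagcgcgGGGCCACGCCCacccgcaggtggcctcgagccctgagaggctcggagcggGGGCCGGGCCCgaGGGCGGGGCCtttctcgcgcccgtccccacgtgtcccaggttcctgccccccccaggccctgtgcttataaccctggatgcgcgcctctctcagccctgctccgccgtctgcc
Gch1: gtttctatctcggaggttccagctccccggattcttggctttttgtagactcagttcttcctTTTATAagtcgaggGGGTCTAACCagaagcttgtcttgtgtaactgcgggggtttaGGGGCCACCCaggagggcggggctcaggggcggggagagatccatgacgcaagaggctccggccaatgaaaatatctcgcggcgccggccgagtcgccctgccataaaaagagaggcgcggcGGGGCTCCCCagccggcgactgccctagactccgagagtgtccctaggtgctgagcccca
The letters searched, on both strands, were GGG, any 5 bases and CC for the kappaB motif, GAAA, any 2 bases and GAAA for ISRE, TTCNNNGAA for GAS, AAGGTCA for the ERR element, TGACGTCA for CRE, TGANTCA for AP-1 and TATAAA for the TATA box. The kappaB letters matched 1 time in the Acod1 window, 55 bases before the start, 6 times in the Ass1 window and 5 times in the Gch1 window, where matches on opposite strands overlap each other. These loose letters are common: 50.4% of the 27025 promoter windows held them. TATAAA lay 28 bases before the Acod1 start and, on the opposite strand, 188 bases before the Gch1 start, and 14.2% of windows held it. The other letters had no match in these 3 windows, and the share of all windows that held them was 3.49% for ISRE, 8.47% for GAS, 4.66% for the ERR element, 1.88% for CRE and 7.93% for AP-1. The G and C share of the windows was 47% for Acod1, 74% for Ass1 and 60.3% for Gch1. Nos2, Arg1, Arg2, Asl and Slc7a2 had no window in the table. A link of these motifs to the LPS response was not tested.

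Levels below are log2 of the processed signal, with the 75th percentile of its array subtracted, so that 0 is that percentile, and levels are not compared between probes. A difference is a log2 difference ± its standard error from limma, called where the p-value adjusted over all 13109 genes tested was under 0.05. The share of probes well above background was 45.3% to 56.7% per array, the 75th percentile of the signal intensity was 288.8 to 609.8, and no spot was saturated. Slide 1 held replicate 1 of every group and slide 2 held replicates 2 and 3. Of the variance of the tested genes, principal component 1 took 76.1% and principal component 2 took 10%. Esrra, the targeted gene, had levels of 2.48, 0.25 and 0.15 in ERRα-/- cells under PBS, against 4.54, 4.39 and 4.68 in ERRα+/+ cells under PBS, and of 4.40, 3.92 and 3.83 in ERRα-/- cells under LPS, against 5.87, 6.25 and 6.36 in ERRα+/+ cells under LPS. Averaged over both treatments it fell by 2.84 ± 0.36 (adjusted p = 0.00378). Its difference was called under PBS (-3.58 ± 0.51, adjusted p = 0.0225) but not under LPS (-2.11 ± 0.51, adjusted p = 0.201). The ERRα-/- PBS replicate 1 array, the highest of its group for Esrra, also stands apart below. Whether the Esrra probe lies in the deleted part cannot be read from the files or labels. Of 10 macrophage markers 9 were measured and well above background on all 12 arrays.

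LPS raised most of these genes in both genotypes. Acod1, Nos2, Gch1, Slc7a2, Ass1 and Arg2 rose in ERRα-/- and in ERRα+/+ cells, and Asl was not called in either. Arg1 was well above background on 1 of 12 arrays and was not tested, so 7 of the 8 genes were. Slc7a2 was kept through its LPS arrays and entered at measured PBS levels mostly not well above background. Of all 13109 genes, 50.4% were called for LPS in ERRα-/- cells (25.1% higher and 25.3% lower) and 45.9% in ERRα+/+ cells (22.2% higher and 23.7% lower). The median difference of the 7 tested genes was 4.88 in ERRα-/- cells and 4.83 in ERRα+/+ cells, whereas that of all genes was 0.05 in ERRα-/- cells and 0.02 in ERRα+/+ cells. The LPS and PBS arrays did not overlap for these 6 genes in either genotype, a separation that 59.6% of all genes also showed in ERRα-/- cells and 53.9% in ERRα+/+ cells. In the plot of levels by array the 6 genes stand high on the LPS side of each panel, while Asl and Arg1 do not part by treatment.

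**Figure D1:**
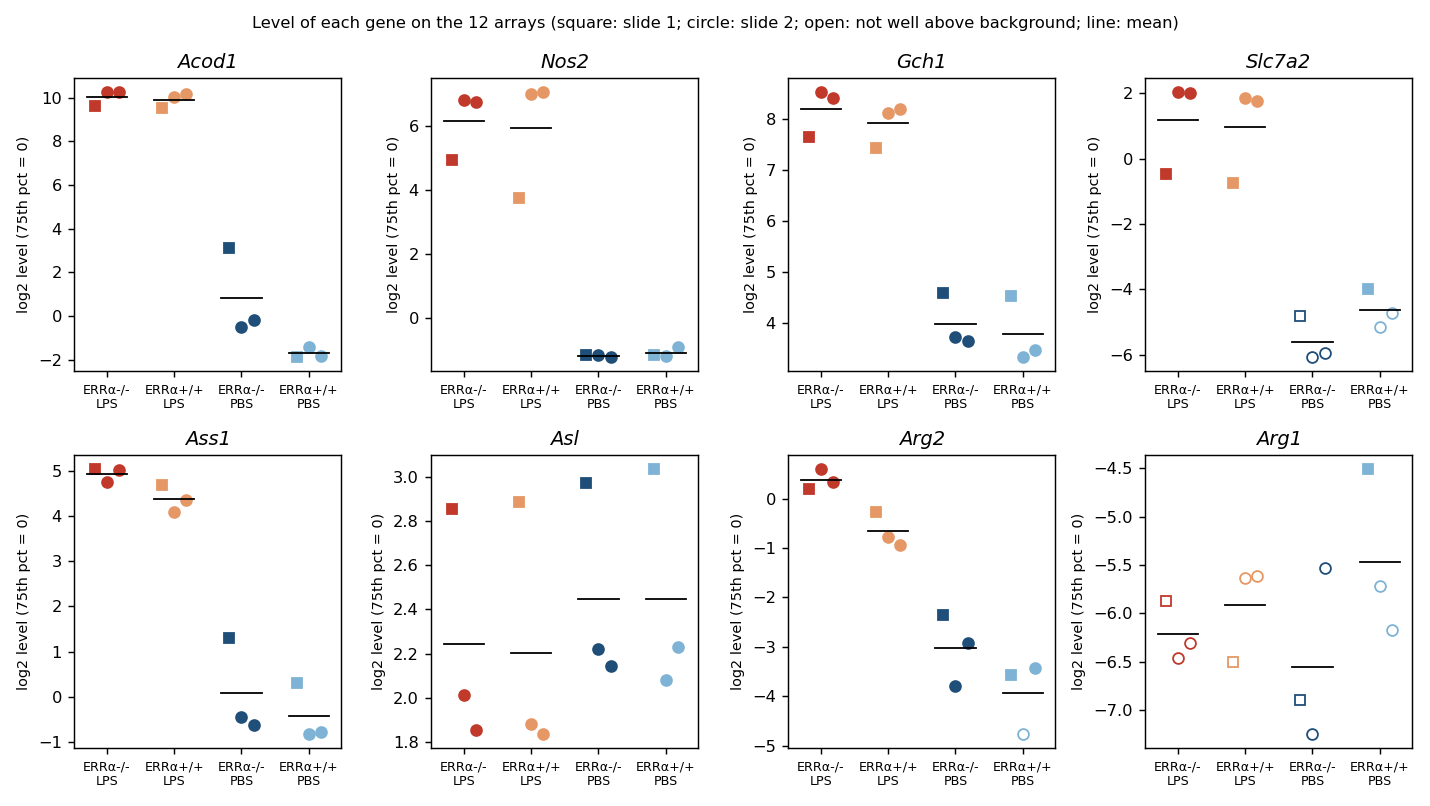
Level of the 8 genes on each array (vertical axis, log2 over the 75th percentile of that array), by group, with LPS groups left and PBS groups right. Squares are slide 1, circles are slide 2, open symbols are arrays where the probe was not well above background, and lines are group means of 3 arrays. Acod1 reaches 9.51 to 10.27 on the LPS arrays, and its ERRα-/- PBS replicate 1 value of 3.11 lies above all other PBS arrays.

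Acod1, the itaconate synthase gene, had the highest fold rise of the set. Its levels were 9.60, 10.25 and 10.27 in ERRα-/- cells under LPS, against 3.11, -0.48 and -0.17 in ERRα-/- cells under PBS. In ERRα+/+ cells they were 9.51, 10.03 and 10.15 under LPS, against -1.89, -1.39 and -1.81 under PBS. All 6 LPS arrays lay in a narrow band, and the PBS arrays were spread more widely in ERRα-/- cells. Before scaling the LPS signals were 351600 to 389400, while the 75th percentiles of these arrays were 288.8 to 526.3. Whether these signals neared an upper limit of the measurement was not tested. The rise was 9.22 ± 0.75 in ERRα-/- cells (595-fold, adjusted p = 1.19e-05), which ranked 5th of 13109 genes. It was 11.59 ± 0.75 in ERRα+/+ cells (3080-fold, adjusted p = 2.63e-06), which ranked 2nd. Without the ERRα-/- PBS replicate 1 array the rise in ERRα-/- cells was 10.36 (adjusted p = 1.19e-07).

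Nos2, the inducible nitric oxide synthase gene, was barely spread under PBS. It had levels of 4.96, 6.81 and 6.77 in ERRα-/- cells under LPS, against -1.15, -1.13 and -1.22 in ERRα-/- cells under PBS. In ERRα+/+ cells it had 3.76, 7.01 and 7.08 under LPS, against -1.15, -1.17 and -0.90 under PBS. In both genotypes the LPS array of slide 1 was the lowest of its group. The rise was 7.35 ± 0.78 in ERRα-/- cells (163-fold, adjusted p = 5.95e-05) and 7.03 ± 0.78 in ERRα+/+ cells (130-fold, adjusted p = 7.36e-05). Within slide 2 it was 7.96 in ERRα-/- cells and 8.08 in ERRα+/+ cells; on slide 1 it was 6.11 in ERRα-/- cells and 4.91 in ERRα+/+ cells.

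Gch1, which encodes GTP cyclohydrolase, the first enzyme of tetrahydrobiopterin synthesis, was already well above background under PBS. Its levels were 7.65, 8.53 and 8.42 in ERRα-/- cells under LPS, against 4.58, 3.73 and 3.65 in ERRα-/- cells under PBS. ERRα+/+ cells had 7.43, 8.12 and 8.18 under LPS, against 4.53, 3.33 and 3.48 under PBS. The 4 slide 1 arrays were the lowest of their group under LPS and the highest under PBS. Before scaling the LPS signals were 90710 to 106900, while the 75th percentiles of these arrays were 288.8 to 526.3. Whether these signals neared an upper limit of the measurement was not tested. The rise was 4.21 ± 0.39 in ERRα-/- cells (18.5-fold, adjusted p = 2.63e-05) and 4.13 ± 0.39 in ERRα+/+ cells (17.6-fold, adjusted p = 2.69e-05). A second Gch1 probe differed by 3.36 in ERRα-/- cells and 3.83 in ERRα+/+ cells.

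Slc7a2, whose product CAT2 carries arginine into the cell, was near or below the detection limit without LPS. It had levels of -0.47, 2.05 and 2.01 in ERRα-/- cells under LPS, against -4.81, -6.08 and -5.95 in ERRα-/- cells under PBS, where no array was well above background. In ERRα+/+ cells it had -0.76, 1.87 and 1.77 under LPS, against -3.98, -5.15 and -4.74 under PBS, where 1 of 3 arrays was well above background. It therefore rose at least 53.2-fold in ERRα-/- cells, a bound against the lowest level of a probe well above background on each PBS array. The limma adjusted p of 0.000119 there was for the measured levels, of a probe kept because its LPS arrays were well above background. In ERRα+/+ cells the fitted difference was 5.58 ± 0.82 (adjusted p = 0.000402), and since 2 of its 3 PBS levels were not well above background its size is uncertain. As for Nos2, the slide 1 array was the lowest LPS array in both genotypes. With the normexp background correction the rise was still called in both genotypes, with a fitted difference of 3.44 in ERRα+/+ cells.

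Ass1 and Asl, which act one after the other to rebuild arginine from citrulline, responded differently. Ass1, which encodes argininosuccinate synthase, had levels of 5.06, 4.77 and 5.02 in ERRα-/- cells under LPS, against 1.31, -0.46 and -0.64 in ERRα-/- cells under PBS. In ERRα+/+ cells it had 4.70, 4.11 and 4.36 under LPS, against 0.30, -0.84 and -0.78 under PBS. The slide 1 arrays were the highest PBS arrays in both genotypes. Ass1 rose in ERRα-/- cells by 4.88 ± 0.47 (29.5-fold, adjusted p = 3.5e-05) and in ERRα+/+ cells by 4.83 ± 0.47 (28.5-fold, adjusted p = 3.55e-05), and its second probe differed by 5.20 in ERRα-/- cells and by 5.15 in ERRα+/+ cells.

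Asl, which encodes argininosuccinate lyase, had levels of 2.85, 2.01 and 1.85 in ERRα-/- cells under LPS, against 2.97, 2.22 and 2.15 in ERRα-/- cells under PBS. ERRα+/+ cells had 2.89, 1.88 and 1.83 under LPS, against 3.04, 2.08 and 2.23 under PBS. Slide 1 arrays stood above slide 2 arrays in all 4 groups, and the LPS and PBS arrays overlapped. The differences were -0.21 ± 0.39 in ERRα-/- cells (95% interval -1.08 to 0.66, adjusted p = 0.688) and -0.25 ± 0.39 in ERRα+/+ cells (95% interval -1.12 to 0.62, adjusted p = 0.634). The LPS array was below the PBS array of the same replicate number in 3 of 3 replicates of each genotype. With slide as a block the difference of -0.25 in ERRα+/+ cells was called (adjusted p = 0.0477), and so was that of -0.30 within slide 2 (adjusted p = 0.0279). Of all 13109 genes, 8223 were called in ERRα+/+ cells with the slide block and 9476 within slide 2.

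Of the arginase genes Arg2 rose with LPS and Arg1 was mostly below detection. Arg2 had levels of 0.20, 0.61 and 0.33 in ERRα-/- cells under LPS, against -2.36, -3.80 and -2.93 in ERRα-/- cells under PBS. ERRα+/+ cells had -0.27, -0.78 and -0.93 under LPS, against -3.57, -4.77 and -3.44 under PBS, where 2 of 3 arrays were well above background. The rise was 3.41 ± 0.41 in ERRα-/- cells (10.6-fold, adjusted p = 0.000121) and 3.27 ± 0.41 in ERRα+/+ cells (9.63-fold, adjusted p = 0.000154). The fit with normexp gave a rise of 1.84 in ERRα+/+ cells, still called. Arg1 had levels of -5.87, -6.46 and -6.31 in ERRα-/- cells under LPS, against -6.90, -7.25 and -5.53 in ERRα-/- cells under PBS. It had -6.51, -5.63 and -5.61 in ERRα+/+ cells under LPS, against -4.50, -5.72 and -6.17 in ERRα+/+ cells under PBS. The single array well above background was ERRα+/+ PBS replicate 1, so no fold is given for Arg1.

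Replicate by replicate, the LPS response of the 6 genes had the same direction in all 3 replicates of both genotypes, as the plot of differences by replicate shows. The slide 1 response was the smallest of the 3 for Nos2, Gch1 and Ass1 in both genotypes. For Gch1 it was 3.07 on slide 1 and 4.80 and 4.77 on slide 2 in ERRα-/- cells. In ERRα+/+ cells it was 2.90 on slide 1 and 4.79 and 4.71 on slide 2. Acod1 behaved so in ERRα-/- cells, with 6.49 on slide 1 and 10.73 and 10.44 on slide 2. In ERRα+/+ cells its response was 11.40 on slide 1 and 11.42 and 11.96 on slide 2. All 6 genes stayed called in both genotypes without each array in turn, within slide 2 and in the fit with a slide block. For Slc7a2, kept through its LPS arrays, these calls rest on PBS levels mostly not well above background.

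**Figure D2:**
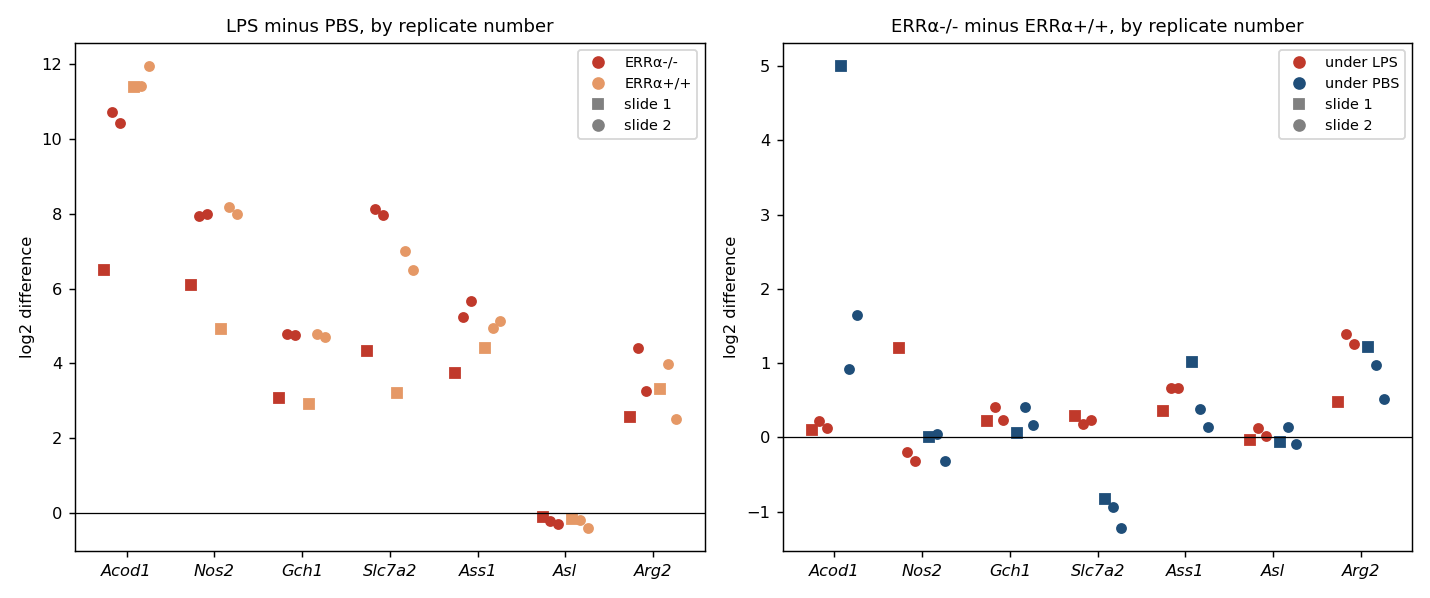
Differences for each gene within each replicate number (vertical axes, log2 difference), LPS minus PBS on the left and ERRα-/- minus ERRα+/+ on the right. Squares are slide 1 and circles are slide 2. On the left every gene but Asl lies well above 0 in all replicates, and on the right Acod1 under PBS reaches 5.00 on slide 1. Slc7a2 differences that use PBS arrays rest on levels mostly not well above background.

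The genotype comparison asked whether ERRα-/- cells differ from ERRα+/+ cells in these genes, and limma called none of the 7 tested genes under PBS, under LPS or averaged over both. Under LPS limma did not call Esrra, the targeted gene, either (adjusted p = 0.201). Of all genes 0.427% were called under PBS (0.0687% higher and 0.359% lower), 0.13% under LPS (0.0763% higher and 0.0534% lower) and 1.36% averaged (0.397% higher and 0.961% lower). At an unadjusted p under 0.05 there was 1 gene under PBS (Acod1), 1 under LPS (Arg2) and 2 averaged (both of these). Of all 13109 genes, 862 had such a p under PBS, 818 under LPS and 1235 averaged. The median genotype difference of the 7 genes was 0.212 under PBS, 0.235 under LPS and 0.252 averaged, while over all genes it was -0.023 under PBS, -0.00735 under LPS and -0.015 averaged, with Slc7a2 entered at its measured level. Acod1 under PBS, and Arg2 and Ass1 under LPS, had every ERRα-/- array above every ERRα+/+ array, which 5.81% of all genes showed under PBS and 4.45% under LPS. The plot of contrasts shows that all intervals but those of Acod1 under PBS and averaged and of Arg2 under LPS and averaged include 0.

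**Figure D3:**
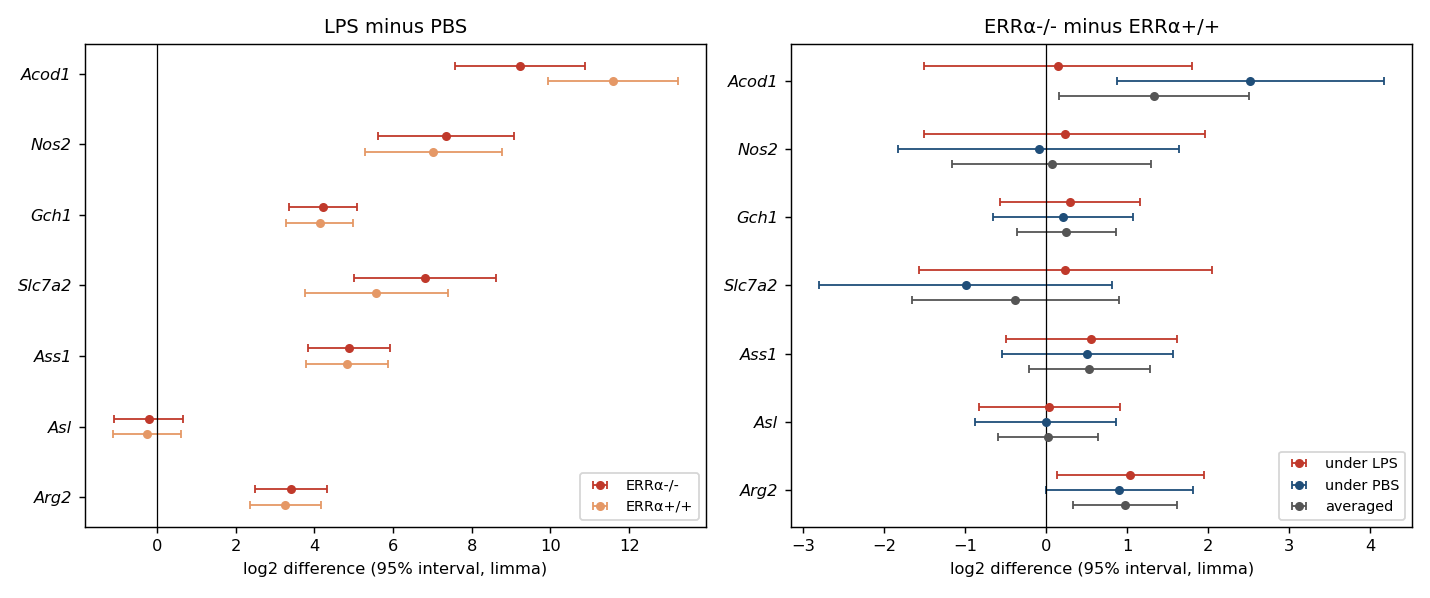
Log2 differences (horizontal axes) of the 7 tested genes with 95% intervals from limma, LPS minus PBS on the left and ERRα-/- minus ERRα+/+ on the right. On the left 6 genes lie far above 0 in both genotypes, from 3.27 for Arg2 to 11.59 for Acod1. On the right Acod1 under PBS lies at 2.52 with an interval of 0.87 to 4.17, and none of the genotype differences was called after adjustment; Slc7a2 values that use PBS arrays rest on levels mostly not well above background.

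Acod1 under PBS was higher in ERRα-/- cells in 3 of 3 replicates, by 5.00 on slide 1 and by 0.91 and 1.64 on slide 2. The 10 spots of its probe on the ERRα-/- PBS replicate 1 array varied with an SD of 0.0392 around 3.11. The fitted difference was 2.52 ± 0.75 (adjusted p = 0.303). Without that array it was 1.38 (adjusted p = 0.118), and within slide 2, where 1250 of 13109 genes were called, it was 1.28 (adjusted p = 0.0107). With slide as a block the adjusted p was 0.163. Under LPS the difference was 0.14 ± 0.75 (95% interval -1.51 to 1.80, adjusted p = 0.998), or 0.10, 0.22 and 0.12 by replicate. The Acod1 signals under LPS lay close together before scaling, as given above. Averaged over both treatments the difference was 1.33 ± 0.53 (adjusted p = 0.422). Within slide 2, where 2665 of 13109 genes were called, it was 0.72 (adjusted p = 0.0108).

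Joined by replicate number, Arg2 was higher in ERRα-/- cells in all 3 replicates under each treatment, though the numbers were not taken as pairs. Under PBS the genotypes overlapped, with -3.80 on ERRα-/- replicate 2 and -3.44 on ERRα+/+ replicate 3. The PBS level of ERRα+/+ replicate 2 (-4.77) was not well above background. Under LPS the difference by replicate was 0.47, 1.39 and 1.26, and under PBS it was 1.21, 0.98 and 0.51. The fitted difference was 1.04 ± 0.41 under LPS (adjusted p = 0.65), 0.90 ± 0.41 under PBS (adjusted p = 0.767) and 0.97 ± 0.29 averaged (adjusted p = 0.199). Averaged, 0.885% of all genes had a larger positive difference. With slide as a block the averaged adjusted p was 0.0751, and within slide 2 the difference was 1.03 (adjusted p = 0.0756). With array weights, where 3686 of 13109 genes were called, it was 0.93 (adjusted p = 0.0156). With normexp it was 0.56. In the plot of genotypes joined by replicate every Arg2 line falls towards ERRα+/+.

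**Figure D4:**
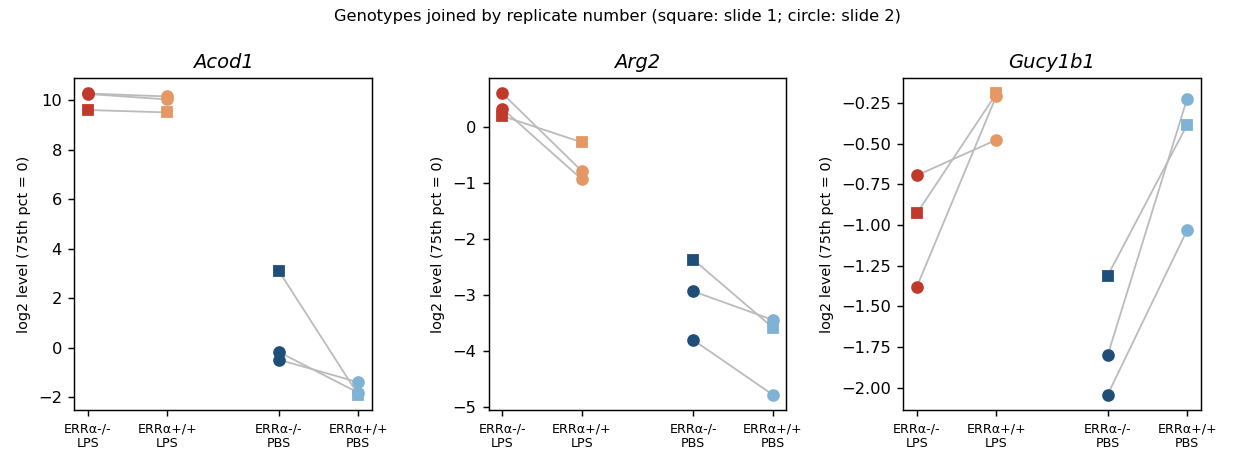
Levels (vertical axes, log2 over the 75th percentile of that array) of Acod1, Arg2 and Gucy1b1, with ERRα-/- and ERRα+/+ arrays of the same replicate number joined, LPS left and PBS right in each panel. Squares are slide 1 and circles are slide 2. Arg2 is higher and Gucy1b1 lower in ERRα-/- cells in every joined pair, and the Acod1 pairs lie 0.10 to 0.22 apart under LPS and 0.91 to 5.00 under PBS. The numbers were not taken as pairs, and the Arg2 arrays of both genotypes overlap under PBS.

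The differences of the other members between genotypes were smaller. Ass1 differed by 0.56 ± 0.47 under LPS (adjusted p = 0.992), 0.36, 0.66 and 0.66 by replicate, and by 0.51 ± 0.47 under PBS (adjusted p = 1). Within slide 2 the Ass1 difference under LPS was 0.66 and was called (adjusted p = 0.0239), as were 2216 of 13109 genes. Gch1 differed by 0.29 ± 0.39 under LPS and 0.21 ± 0.39 under PBS, higher in 3 of 3 replicates under each, and its second probe by -0.03 under LPS and 0.43 under PBS. The signals of the first Gch1 probe under LPS lay close together before scaling, as given above. Averaged, Gch1 within slide 2 differed by 0.31 and was called (adjusted p = 0.023), as were 2665 of 13109 genes. Nos2 differed by 0.23 ± 0.78 under LPS (95% interval -1.50 to 1.96, adjusted p = 0.998), but by 1.20 on slide 1 and by -0.19 and -0.32 on slide 2. Under PBS Nos2 differed by -0.09 ± 0.78. Asl differed by 0.04 ± 0.39 under LPS (95% interval -0.83 to 0.91) and by -0.00 ± 0.39 under PBS.

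Slc7a2 differed by 0.23 ± 0.82 under LPS (adjusted p = 0.998), higher in ERRα-/- cells in 3 of 3 replicates, by 0.28, 0.18 and 0.24. Under PBS no ERRα-/- array and 1 of 3 ERRα+/+ arrays were well above background, so no genotype difference is given there.

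The LPS response of the 2 genotypes was compared directly by the difference of their responses. limma called none of the 13109 genes (0% of all genes, 293 at an unadjusted p under 0.05) and thus none of the 7 members, of which Acod1 alone had an unadjusted p under 0.05. Its response was smaller in ERRα-/- cells, with a difference of -2.38 ± 1.05 (adjusted p = 1), which was -1.23 without the ERRα-/- PBS replicate 1 array and -1.11 within slide 2 (adjusted p = 0.0579). Whether the Acod1 signals under LPS neared an upper limit was not tested. The other differences of response were 0.32 ± 1.11 for Nos2, 0.14 ± 0.58 for Arg2, 0.08 ± 0.55 for Gch1, 0.05 ± 0.67 for Ass1 and 0.04 ± 0.56 for Asl. The 95% interval of the Nos2 difference was -2.13 to 2.77.

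Of the surrounding pathways, 69 other genes were listed and 55 were tested. In ERRα-/- cells 10 of them rose with LPS, 12 fell and 33 were not called, with a median of -0.01, where 25.1% of all genes rose and 25.3% fell. In ERRα+/+ cells 8 rose, 12 fell and 35 were not called, with a median of -0.10, where 22.2% of all genes rose and 23.7% fell. The counts of the single lists that follow, shown in the plot of the pathway lists, stand beside the same shares of all genes.

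**Figure D5:**
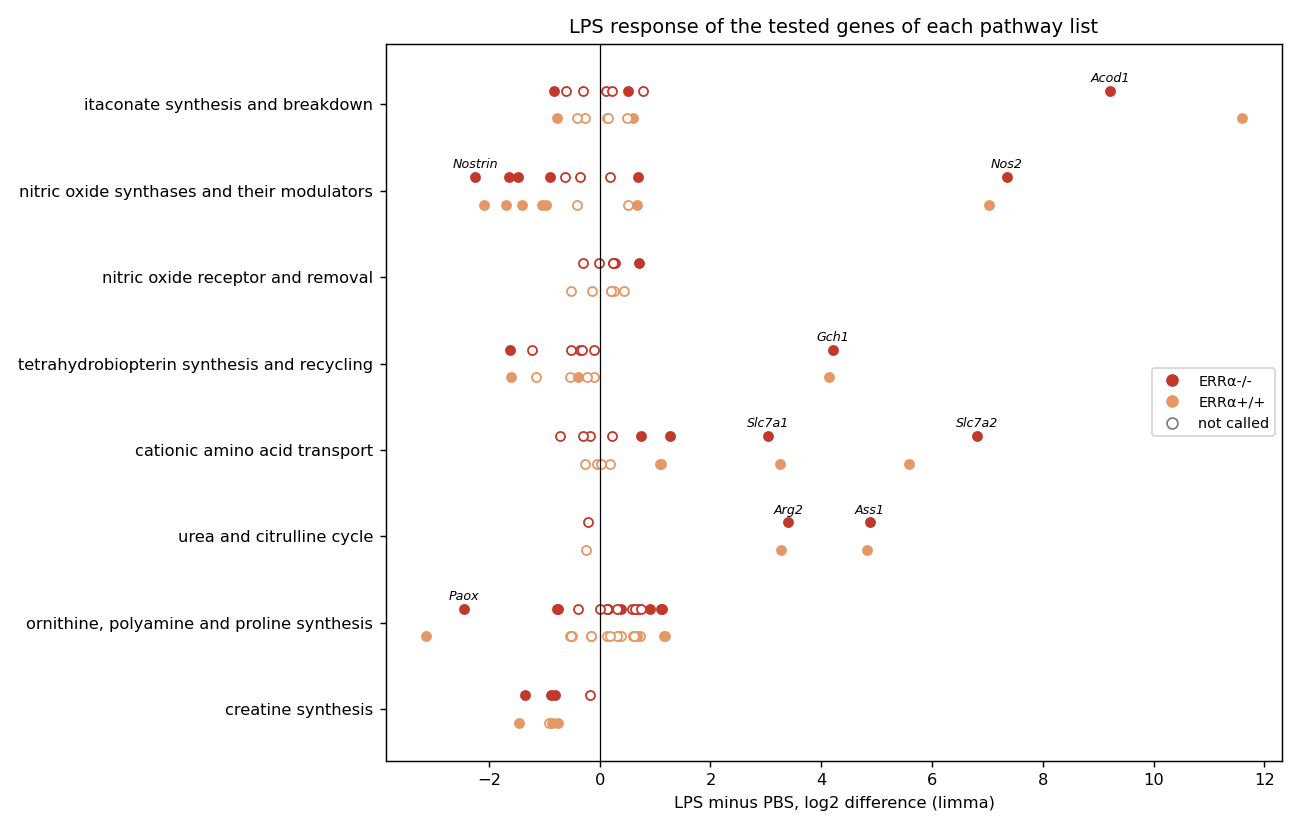
LPS minus PBS log2 difference (horizontal axis) of each tested gene in 8 pathway lists, in ERRα-/- cells (upper row of each list) and ERRα+/+ cells (lower row), with open symbols for genes not called. Acod1, Nos2, Gch1, Slc7a2, Ass1 and Arg2 are the far right points of their lists, together with Slc7a1 at 3.05 in ERRα-/- and 3.25 in ERRα+/+ cells.

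Around itaconate, of 8 tested genes Acod1 and Cs rose and Suclg2 fell in both genotypes. Cs, the citrate synthase gene, had levels of 6.46, 6.47 and 6.49 in ERRα-/- cells under LPS, against 5.97, 6.00 and 5.90 in ERRα-/- cells under PBS. It rose in ERRα-/- cells by 0.52 ± 0.13 (adjusted p = 0.00793) and in ERRα+/+ cells by 0.59 ± 0.13 (adjusted p = 0.00445), but with quantile normalization the values were -0.04 in ERRα-/- and 0.12 in ERRα+/+ cells, not called. That scaling shifted the median of all genes to -0.151 in ERRα-/- cells. Suclg2, a succinyl-CoA ligase subunit gene, fell in ERRα-/- cells (-0.83 ± 0.28, adjusted p = 0.0299) and in ERRα+/+ cells (-0.77 ± 0.28, adjusted p = 0.0455), and these calls held in 7 of 12 fits without 1 array in ERRα-/- and 4 of 12 in ERRα+/+ cells, with adjusted p up to 0.116 in ERRα-/- and up to 0.153 in ERRα+/+ cells.

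Among 9 tested genes of nitric oxide synthases and their modulators, 2 rose in each genotype, Nos2 among them. In ERRα-/- cells 4 of the list fell and in ERRα+/+ cells 5. Nostrin, which binds and traffics the endothelial synthase, had levels of -1.04, -1.88 and -2.19 in ERRα-/- cells under LPS, against 0.69, 0.53 and 0.43 in ERRα-/- cells under PBS. It fell in ERRα-/- cells (-2.25 ± 0.36, adjusted p = 0.00064) and in ERRα+/+ cells (-2.09 ± 0.36, adjusted p = 0.00109). Nos1ap, an adaptor of the neuronal synthase, fell in ERRα-/- cells (-1.63 ± 0.19, adjusted p = 0.000114) and in ERRα+/+ cells (-1.69 ± 0.19, adjusted p = 8.82e-05). Ddah2, of the family linked to removal of the synthase inhibitor dimethylarginine, fell in ERRα-/- cells (-1.47 ± 0.34, adjusted p = 0.00502) and in ERRα+/+ cells (-1.41 ± 0.34, adjusted p = 0.00702).

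Of 7 tested genes of tetrahydrobiopterin synthesis and recycling, Gch1 alone rose. Pcbd2, a cofactor-recycling dehydratase gene, differed by -0.32 ± 0.13 in ERRα-/- cells (adjusted p = 0.0625) and fell by 0.39 ± 0.13 in ERRα+/+ cells (adjusted p = 0.0305). That call ended without replicate 2 or 3 of ERRα+/+ LPS or of ERRα+/+ PBS (adjusted p up to 0.1) and without the filter on dim probes (0.0964).

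Of 8 tested cationic amino acid transport genes 4 rose in each genotype and none fell. Slc7a1, which encodes the housekeeping arginine carrier CAT1, had levels of 4.35, 5.22 and 5.15 in ERRα-/- cells under LPS, against 1.94, 1.72 and 1.93 in ERRα-/- cells under PBS. In ERRα+/+ cells it had 4.96, 5.85 and 5.98 under LPS, against 2.70, 2.21 and 2.13 under PBS. It rose in ERRα-/- cells by 3.05 ± 0.31 (adjusted p = 4.49e-05) and in ERRα+/+ cells by 3.25 ± 0.31 (adjusted p = 2.85e-05). Slc3a2, the heavy chain of several amino acid exchangers, rose in ERRα-/- cells by 1.27 ± 0.20 (adjusted p = 0.000512) and in ERRα+/+ cells by 1.08 ± 0.20 (adjusted p = 0.00139). Its light chain partner gene Slc7a7 rose in ERRα-/- cells by 0.74 ± 0.27 (adjusted p = 0.0434, up to 0.152 without single arrays and 0.408 with quantile normalization) and in ERRα+/+ cells by 1.12 ± 0.27 (adjusted p = 0.00715).

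In the urea and citrulline list only Ass1, Asl and Arg2 of 7 genes were tested. Nags, Cps1 and Otc were not well above background on all arrays of any group, and neither was Arg1. Downstream of arginase, 17 genes of ornithine, polyamine and proline synthesis were tested, of which 4 rose and 3 fell in ERRα-/- cells and 3 rose and 1 fell in ERRα+/+ cells. Paox, which oxidises acetylated polyamines, had levels of 1.80, 1.56 and 1.46 in ERRα-/- cells under LPS, against 3.83, 4.10 and 4.22 in ERRα-/- cells under PBS. It fell in ERRα-/- cells (-2.44 ± 0.20, adjusted p = 1.14e-05) and in ERRα+/+ cells (-3.13 ± 0.20, adjusted p = 2.44e-06). Azin1, which relieves inhibition of ornithine decarboxylase, rose by 1.13 ± 0.32 in ERRα-/- cells (adjusted p = 0.0145) and differed by 0.73 ± 0.32 in ERRα+/+ cells (adjusted p = 0.0894). Srm, the spermidine synthase gene, differed by 0.70 ± 0.38 in ERRα-/- cells (adjusted p = 0.151) and rose by 1.19 ± 0.38 in ERRα+/+ cells (adjusted p = 0.0259). The Srm call ended without ERRα+/+ LPS replicate 1, ERRα+/+ PBS replicate 2 or ERRα+/+ PBS replicate 3 (adjusted p up to 0.0995) and in 3 of 12 other alternatives (up to 0.0816), and that of Azin1 ended without ERRα-/- LPS replicate 2 or 3 (up to 0.0602).

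Of 4 tested genes in the creatine list, which include a transporter and a kinase, 3 fell in each genotype. Of all genes 25.3% fell in ERRα-/- and 23.7% in ERRα+/+ cells. Gatm was not called in ERRα-/- cells (-0.18 ± 0.53, adjusted p = 0.795) or in ERRα+/+ cells (-0.92 ± 0.53, adjusted p = 0.176). Slc6a8, the creatine transporter gene, fell in ERRα-/- cells (-1.34 ± 0.48, adjusted p = 0.0381) and in ERRα+/+ cells (-1.46 ± 0.48, adjusted p = 0.0287), with adjusted p up to 0.135 in ERRα-/- and 0.0942 in ERRα+/+ cells without single arrays. Ckb, a creatine kinase gene, fell in ERRα-/- cells (-0.80 ± 0.16, adjusted p = 0.0026) and in ERRα+/+ cells (-0.87 ± 0.16, adjusted p = 0.00188). Gamt, which completes creatine from an arginine-derived precursor, fell in ERRα-/- cells (-0.89 ± 0.18, adjusted p = 0.00234) and in ERRα+/+ cells (-0.75 ± 0.18, adjusted p = 0.0063, and 0.124 with normexp).

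Between genotypes, limma called 1 of these 55 genes, averaged over both treatments, where 1.36% of all genes were called. Averaged, 8 of the 55 had an unadjusted p under 0.05, as had 1235 of all 13109 genes. Gucy1b1 encodes a subunit of soluble guanylate cyclase, the receptor of nitric oxide. Its levels were -0.93, -1.38 and -0.69 in ERRα-/- cells under LPS, against -0.19, -0.20 and -0.48 in ERRα+/+ cells under LPS. Under PBS they were -1.31, -1.80 and -2.04 in ERRα-/- cells, against -0.38, -0.22 and -1.03 in ERRα+/+ cells. The genotypes did not overlap under either treatment, which held for 12% of all genes under LPS and 14.2% under PBS. Gucy1b1 fell by 0.94 ± 0.19 in ERRα-/- cells (adjusted p = 0.0409). The call held with slide as a block (adjusted p = 0.0145), where 649 of 13109 genes were called. Within slide 2, where 2665 genes were called, it held too (adjusted p = 0.0317). It held in only 2 of 12 fits that leave out 1 array, with adjusted p up to 0.118. Of 12 other alternatives 9 kept it, and it ended with normexp (-0.65, adjusted p = 0.055), with the percentile over probes above background on all arrays and without the filter on dim probes (adjusted p = 0.0984). The fits that kept it were those without ERRα-/- PBS replicate 1 and without ERRα+/+ PBS replicate 3. LPS also raised it in ERRα-/- cells, by 0.72 ± 0.27 (adjusted p = 0.0448, up to 0.158 without single arrays), while it differed by 0.26 ± 0.27 in ERRα+/+ cells (adjusted p = 0.46). The 7 tested stromal and endothelial markers had a median genotype difference of -0.85 averaged over both treatments, with none called, and the lowest was Col1a1, a collagen gene (-1.14 ± 0.33, adjusted p = 0.179). Their part in the Gucy1b1 difference was not tested. None of the 55 genes was called under PBS or LPS alone or in the difference of responses, where an unadjusted p under 0.05 was found for 3 under PBS, 7 under LPS and 2 in the difference of responses. Of all 13109 genes, 862 had such a p under PBS, 818 under LPS and 293 in the difference of responses.

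For each tested member the genes most alike in pattern were found by Pearson's r of the levels over the 12 arrays, which share the LPS contrast and the slides. For Acod1 these were Ccl5 (r = 0.9987), Itpka (0.9969) and Saa3 (0.9968). For Nos2 they were Fcgr2b (0.9967), Mgat4a (0.9964) and Cst7 (0.9959), all of which were lowest among LPS arrays on slide 1. Slc7a2 was nearest to Sh3bgrl2 (0.9949), Il27 (0.9939) and Serpinb2 (0.9937), Gch1 to Nfkbib (0.9978), Acot10 (0.997) and Stip1 (0.9967), and Ass1 to Adora2a (0.9937), Ttc39c (0.9925) and Tnf (0.9918). Arg2 was nearest to Nme2 (0.9836), Rab11a (0.9825) and Rasa4 (0.9786). Gstp1 (0.9836) was among the 3 genes nearest to Asl, and like Asl it was higher on slide 1 than on slide 2. Among the members themselves Nos2 and Slc7a2 were most alike (r = 0.986), followed by Ass1 with Acod1 and with Gch1 (both 0.982), and Asl had r of -0.417 to -0.0917 with the others. Every r of Slc7a2 uses PBS levels mostly not well above background.

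Markers of other cells were read beside these values. In bulk samples fewer cells of a type and less RNA per cell cannot be told apart. Linear sums are weighted to their highest markers and LPS moved single markers, so the sums do not measure cell numbers. In ERRα-/- cells LPS raised Hdc and Cpa3 and lowered Tpsb2. Of 7 tested stromal and endothelial markers only Pdgfrb was called there, higher, and 3 of 5 tested dendritic cell markers rose. Of all genes 25.1% rose there. Zbtb46, 1 of these 3, was well above background on 1 of 3 arrays in each PBS group and was kept through its LPS arrays. In ERRα+/+ cells Zbtb46 was the only 1 of the 5 called. The neutrophil marker S100a9 had a mean level of 8.09 in ERRα-/- cells under LPS. Of the 5 erythroid markers 2 were well above background. The summed linear level of 9 measured neutrophil markers was 321.1 to 497.9 in ERRα-/- cells under LPS, 267.6 to 536.9 in ERRα+/+ cells under LPS, 234.5 to 288.4 in ERRα-/- cells under PBS and 309.6 to 446.2 in ERRα+/+ cells under PBS. The summed level of 8 stromal and endothelial markers was 6.80 to 13.6 in ERRα-/- cells under LPS, 12.4 to 17.3 in ERRα+/+ cells under LPS, 3.94 to 4.19 in ERRα-/- cells under PBS and 5.74 to 12.3 in ERRα+/+ cells under PBS. The erythroid sum of 5 markers was 0.69 to 1.22 in ERRα-/- cells under LPS, 1.30 to 1.67 in ERRα+/+ cells under LPS, 2.09 to 2.58 in ERRα-/- cells under PBS and 3.09 to 4.09 in ERRα+/+ cells under PBS. The neutrophil, stromal and erythroid sums were thus lower in ERRα-/- cells under PBS without overlap, the erythroid sum under LPS too. The dendritic cell sum of 6 markers was 6.09 on the ERRα-/- PBS replicate 1 array, where Acod1 was highest among PBS arrays, and 1.00 and 0.71 on the other ERRα-/- PBS arrays, against 3.49, 1.87 and 1.80 in ERRα+/+ cells under PBS. The lymphocyte sum of 6 measured markers was 10.5, 5.88 and 5.91 in ERRα-/- cells under PBS, against 9.33, 7.71 and 7.94 in ERRα+/+ cells under PBS. Under LPS the dendritic cell sum was 6.57 to 22.8 in ERRα-/- cells and 7.79 to 8.86 in ERRα+/+ cells, and the lymphocyte sum 7.79 to 14.2 in ERRα-/- cells and 8.50 to 8.85 in ERRα+/+ cells. The mast cell and basophil sum of 6 markers was 14.5 to 57.4 in ERRα-/- cells under LPS, 8.29 to 54.2 in ERRα+/+ cells under LPS, 3.17 to 4.62 in ERRα-/- cells under PBS and 4.28 to 5.87 in ERRα+/+ cells under PBS. None of the single markers was called between genotypes, and the part of these cells in the member differences was not tested. Xcr1 of dendritic cells, Fcer1a of mast cells and the erythroid genes Hbb-bs and Klf1 were well above background on no array.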

How the data were processed

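RNA from 12 samples of mouse bone marrow-derived macrophages was labelled with Cy3 (Low Input Quick Amp kit, per the labels' protocols) and read on one-colour Agilent arrays, 1 array per sample. The intensity values used are the processed signals as deposited by the authors, background-subtracted and detrended per the file headers, which name Feature Extraction 11.5.1.1, whereas the submitters' processing notes name 9.3.2.1. The deposited table of authors' values equals these signals (largest difference 0). Members and gene lists were chosen with earlier results of these data known. Flagged spots were left out, spots of a probe averaged on the log2 scale, and each array's 75th percentile subtracted. Probes not well above background in every one of the 3 arrays of some group were left out, and the kept probe with the highest mean stood for its gene. Of 55681 probes, 27509 named 20887 genes through their accession and 28172 stayed unnamed. limma 3.58.1 (R 4.3.3) fitted the 4 group means to 13109 genes with empirical Bayes moderation and Benjamini-Hochberg adjustment in each of 6 comparisons, and was tested on simulated data. All members were named, with up to 3 other genes per pathway list (the largest LPS difference averaged over genotypes among genes called in at least 1 genotype), genes called between genotypes, and the 3 genes most like each member. Some genes this rule names are not reported here. The 13 alternatives covered normalization, background correction, the dim-probe filter, probe choice, slide and replicate blocks, array weights and leaving out each array. The number of arrays limits the precision.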

Additional observations from a re-analysis of the deposited data

Results flagged for a closer look

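The measured Slc7a2 levels of ERRα-/- arrays were above those of ERRα+/+ arrays in 3 of 3 replicates under LPS and below them in 3 of 3 under PBS, where no ERRα-/- array and 1 of 3 ERRα+/+ arrays were well above background. The fitted difference of the LPS responses, 1.23 ± 1.15 on the log2 scale (limma adjusted p = 1), therefore rests on levels near background and is no measured difference of response.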

How the results depend on the processing

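The rises of Acod1, Nos2, Gch1, Slc7a2, Ass1 and Arg2 with LPS were called in both genotypes under each alternative that gave a value. The filter for probes above background on all 12 arrays left out Slc7a2 and Arg2 and gave no value for them. Slc7a2 was kept through its LPS arrays, so its calls under the other alternatives are no independent support. Over all results 1784 alternative values kept direction and call, 90 lost the call, 40 gained it and 66 changed sign, mostly differences near 0; the cause was not tested. Quantile normalization turned Cs to -0.037 (LPS, ERRα-/-), Acod1 to -0.040 (genotype under LPS) and the difference of responses to -0.12 for Ass1 and -0.058 for Gch1. Normexp turned Asl to 0.032 under PBS, -0.013 under LPS and -0.045 in the difference of responses, and gave 37 genotype calls under PBS, 112 averaged and 1 in the difference of responses, where the main counts were 56, 178 and 0. The percentile over probes above background on all arrays turned Asl to -0.014 under LPS and -0.018 averaged, and the mean of kept probes turned Gch1 to -0.20 in the difference of responses. Genes called higher made up 49.8% of LPS calls in ERRα-/- and 48.3% in ERRα+/+ cells, but 40% and 39.3% with quantile normalization (median of all genes -0.151 and -0.142) and 35.3% and 35.1% with that percentile (-0.214 and -0.215). Without the filter on dim probes 5 genes were called by genotype under PBS, 6 under LPS and 92 averaged. With slide as a block these counts were 277, 212 and 649.

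Within slide 2 the counts were 9476 for LPS in ERRα+/+ cells, 1250 for genotype under PBS, 2216 under LPS, 2665 averaged and 550 in the difference of responses, with 2, 1, 4 and 1 members among the last 4, where Slc7a2, near background under PBS, is 1 of those under PBS and averaged and the 1 in the difference of responses. Asl turned to 0.029 under PBS, and Nos2 to -0.26 under LPS, -0.20 averaged and -0.12 in the difference of responses. Array weights gave 10769 calls for LPS in ERRα-/- and 9621 in ERRα+/+ cells, 1550 for genotype under PBS, 4006 under LPS, 3686 averaged and 1229 in the difference of responses, with 2, 2, 3 and 1 members among the last 4 (Slc7a2 under PBS and in the difference of responses); Nos2 turned to -0.20 under LPS, -0.20 averaged and -0.0017 in the difference of responses.

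Without each array in turn, genotype counts ranged from 3 to 81 under PBS, 3 to 42 under LPS and 84 to 260 averaged. The LPS difference of Asl ranged from -0.51 to 0.058 in ERRα-/- and from -0.59 to 0.048 in ERRα+/+ cells. Genotype differences under PBS ranged from -0.11 to 0.88 for Ass1, -0.27 to 0.29 for Asl and -0.086 to 0.59 for Gch1. Under LPS they ranged from -0.052 to 0.36 for Acod1, -0.87 to 0.84 for Nos2, -0.27 to 0.38 for Asl and -0.62 to 1.07 for Slc7a2. Averaged, they ranged from -0.48 to 0.37 for Nos2, -0.13 to 0.19 for Asl and -0.81 to 0.037 for Slc7a2. The difference of responses ranged from -0.78 to 0.93 for Nos2, -0.24 to 0.56 for Arg2, -0.32 to 0.67 for Ass1, -0.27 to 0.38 for Asl and -0.30 to 0.38 for Gch1.

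Titles number only replicates 2 and 3, so the numbers were not taken as pairs. Deviations from group means correlated over 0.1 in 18 of 18 pairs of the same number (0.144 to 0.783) and in 12 of 12 pairs of different number on one slide (0.129 to 0.555), but in 2 of 6 pairs once slide 2 arrays were set against each other (-0.0161 to 0.162). With the replicate block 193 genes were called by genotype under PBS, 132 under LPS, 498 averaged and 0 in the difference of responses. Signal over background limits Arg1 on 11 of 12 arrays and Slc7a2 and Arg2 under PBS.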
